A study of Mus musculus with 12 samples.

Results

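The Schlafen genes examined here were Slfn1, Slfn2, Slfn3 and Slfn4, a group of neighboring genes that can restrain the growth of T cells. They were measured with Affymetrix U74Av2, U74Bv2 and U74Cv2 arrays, on which a probe set is the group of short oligonucleotides that reads a transcript. Of 36701 probe sets other than the manufacturer's controls, 29131 carried a single gene symbol, and 4 of these carried the symbol of a member. All 4 lay on U74Av2. Slfn1 and Slfn4 had 1 probe set each, Slfn2 had 2, and Slfn3 had none of its own, because the probe set 98299_s_at, which reads it, was annotated to Slfn4 as well. The members were chosen by their measured difference between the groups in these same arrays, so their differences are given as a description with no p-value, and nothing is read from how many of them a test called.

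Thymocytes from AND-TCR–transgenic mice were set against thymocytes from C57BL/6 mice. The transgenic mice carried the H-2b haplotype, and most of their T cells carry the transgenic receptor, which recognizes a peptide presented by MHC class II and is positively selected in H-2b mice toward the CD4 lineage. In C57BL/6 mice, which are also H-2b, the receptors are diverse. Both groups were total adult thymocytes with no sorting, and each was hybridized 2 times to each of the 3 array types, 12 arrays in all. The labels number the hybridizations and do not say whether they came from separate mice, so the spread between them may be technical.

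The family takes its name from the German word for sleeping, since forced expression of its first members stopped cells from dividing. Short mouse members such as Slfn1 and Slfn2 hold the conserved amino-terminal core, whereas long members such as Slfn5, Slfn8 and Slfn9 add a helicase-like region. Slfn1 impairs thymocyte growth when it is overexpressed in the T lineage. Slfn2 keeps naive T cells quiescent, and its mutation in elektra mice lowers their number of T cells. Slfn4 is known as an interferon-responsive gene of monocytes and macrophages, and Slfn3 is known from T cells and, in rats, from the gut epithelium.

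In the RefSeq annotation of GRCm38.p6 the 4 genes lay close together on chromosome 11, in the order Slfn2, Slfn1, Slfn4 and Slfn3, between Slfn5, Slfn9, Slfn8 and the pseudogene Slfn10-ps on the lower-coordinate side and Slfn14 on the higher. The span held 20 annotated genes, of which 8 were protein coding, and each of those 8 was a Schlafen gene. RefSeq promoters covering 250 bases before and 50 bases after the transcript start are printed for Slfn1 and Slfn2, the members with clear signal in thymocytes, on the plus strand, at chr11:83116570-83116869 for Slfn1 and at chr11:83064862-83065161 for Slfn2. The capitals mark the longest run of letters that the promoters of all 4 members shared.
Slfn1: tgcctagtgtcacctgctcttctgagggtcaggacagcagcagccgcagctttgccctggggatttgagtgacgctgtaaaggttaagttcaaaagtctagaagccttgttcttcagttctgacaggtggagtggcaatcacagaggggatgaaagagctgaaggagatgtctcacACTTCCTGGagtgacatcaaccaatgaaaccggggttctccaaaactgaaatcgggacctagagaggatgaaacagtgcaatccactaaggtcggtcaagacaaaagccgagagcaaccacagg
Slfn2: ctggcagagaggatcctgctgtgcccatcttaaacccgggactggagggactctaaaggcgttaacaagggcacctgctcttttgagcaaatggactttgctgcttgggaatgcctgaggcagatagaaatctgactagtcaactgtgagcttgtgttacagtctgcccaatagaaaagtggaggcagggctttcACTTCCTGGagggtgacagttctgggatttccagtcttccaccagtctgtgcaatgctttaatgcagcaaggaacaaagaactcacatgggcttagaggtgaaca
For Slfn3 and Slfn4, which had little or no signal, 60 bases around the same run are printed, at chr11:83191263-83191322 for Slfn3 and at chr11:83175088-83175147 for Slfn4, to show the letters on either side of it.
Slfn3: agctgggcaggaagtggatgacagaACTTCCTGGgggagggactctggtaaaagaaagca
Slfn4: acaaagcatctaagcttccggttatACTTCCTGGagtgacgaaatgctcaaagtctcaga

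The shared run had 9 bases, ACTTCCTGG, and was on the strand of the gene in each member. It began 74 bases before the transcript start in Slfn1, 55 before it in Slfn2, 42 before it in Slfn3 and 73 before it in Slfn4. It was found by comparing the 4 promoters and not by a motif named beforehand, and it occurred on either strand in 277 of 32851 RefSeq promoters of the same length (0.843%) and in none of the other Schlafen promoters. Its complement contains GGAA, the core bound by ETS factors. Slfn1, Slfn2 and Slfn4 shared 2 further bases, AG, after the run, and the resulting 11-base run occurred in 24 of all promoters (0.0731%). Slfn1 and Slfn4 had the longest run in common, 15 bases, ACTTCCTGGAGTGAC. A match of letters is a description, and binding was not measured.

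Of 5 short motifs searched on both strands, the interferon-stimulated response element core, GAAA repeated after a gap of any 2 bases, occurred in 3.44% of all promoters. It was found in promoters of Slfn5, Slfn8 and Slfn9 and in 0 of the 4 member promoters. The STAT motif TTCNNNGAA (8.3% of all promoters) and the forkhead motif TGTTTAC (3.65%) were found in no Schlafen promoter. The Krüppel-like factor motif CACCC, present in 57.5% of promoters, lay in those of Slfn2, Slfn3 and Slfn14, and in Slfn2 it overlapped the end of the 11-base run by 1 base. The Runx motif TGTGGT, present in 16.8%, lay in those of Slfn1 and Slfn8.

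**Figure D1:**
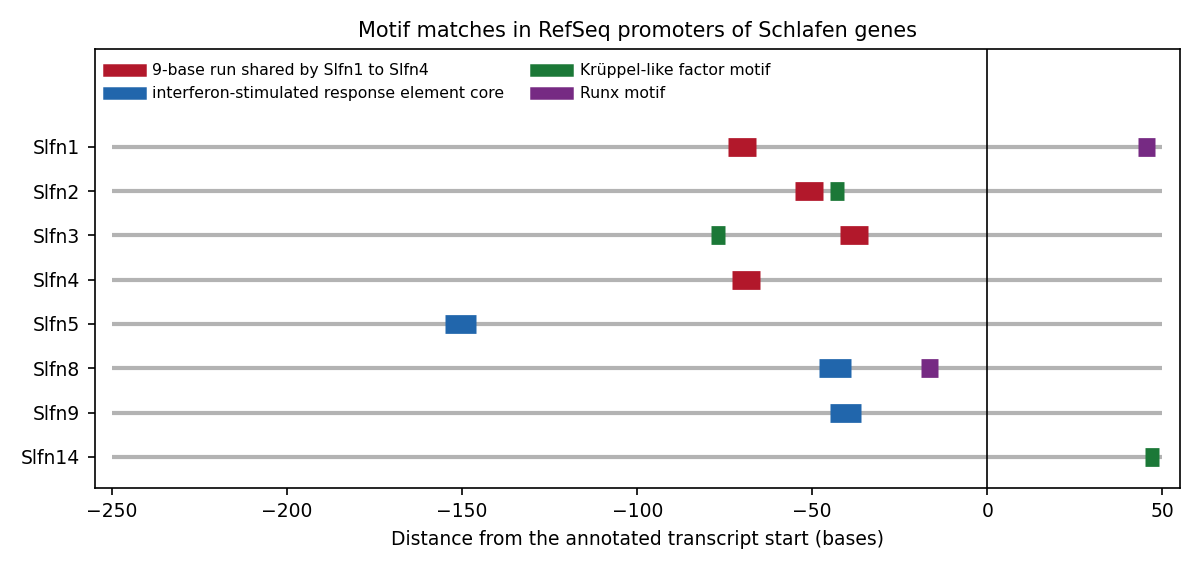
Positions of motif matches in 1 RefSeq promoter of each Schlafen gene, in bases from the annotated transcript start (horizontal axis). The red blocks, the 9-base run, lie between 74 and 34 bases before the start in Slfn1, Slfn2, Slfn3 and Slfn4, and the blue blocks, the interferon-stimulated response element core, lie only in Slfn5, Slfn8 and Slfn9 among the genes drawn.

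Slfn1 had the largest difference of the members. Its probe set 102264_at read 4097 and 3908 in the first and second hybridization of AND-TCR–transgenic thymocytes, against 1012 and 1174 in C57BL/6 thymocytes (scaled intensity). Both transgenic arrays lay above both C57BL/6 arrays, and all 4 lay above the detection limit of 421 for U74Av2, which was set at 2 SDs of the noise. The mean was 4003 ± 134 in AND-TCR–transgenic and 1093 ± 115 in C57BL/6 thymocytes (SD, n = 2 each). The ratio of AND-TCR–transgenic to C57BL/6 was 4.05 between the first hybridizations and 3.33 between the second. The fitted log2 fold change was 1.88 ± 0.23 (SE), a 3.67-fold higher intensity in AND-TCR–transgenic thymocytes. It ranked 12th among the 5573 tested probe sets of U74Av2, whose median log2 fold change was 0.01.

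Slfn2, the quiescence gene, was read by a pair of probe sets. Its brighter probe set 92471_i_at read 11996 and 16035 in AND-TCR–transgenic thymocytes, against 6452 and 6795 in C57BL/6 thymocytes. The groups did not overlap, and the transgenic arrays were farther apart than the C57BL/6 arrays. The mean was 14016 ± 2856 in AND-TCR–transgenic and 6624 ± 242 in C57BL/6 thymocytes (SD, n = 2 each). The ratio was 1.86 between the first hybridizations and 2.36 between the second, and the fitted log2 fold change was 1.07 ± 0.17 (SE), or 2.09-fold.

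The dimmer Slfn2 probe set 92472_f_at read 4577 and 5744 in AND-TCR–transgenic thymocytes, against 1888 and 2485 in C57BL/6 thymocytes. Here, too, the groups did not overlap, and the second hybridization was the higher in both groups. The mean was 5161 ± 825 in AND-TCR–transgenic and 2187 ± 423 in C57BL/6 thymocytes (SD, n = 2 each). The ratio was 2.42 between the first hybridizations and 2.31 between the second, and the log2 fold change was 1.24 ± 0.22 (SE), or 2.37-fold. Both Slfn2 probe sets thus gave ratios of at least 1.86 on each day, and their log2 fold changes differed by 0.18, close to the SE of either. The suffixes _i_at and _f_at mark probe sets that did not meet the usual requirement of the array's design for unique oligonucleotides. A part of either reading may come from a related sequence, which was not tested.

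Slfn4, the gene of monocytes and macrophages, stood near the detection limit. Its probe set 92315_at read 518 and 350 in AND-TCR–transgenic thymocytes, against 670 and 432 in C57BL/6 thymocytes. The groups overlapped, and the second transgenic array lay below the limit. The mean was 434 ± 119 in AND-TCR–transgenic and 551 ± 168 in C57BL/6 thymocytes (SD, n = 2 each). With the value below the limit set to the limit, the ratio was 0.773 between the first hybridizations and 0.974 between the second, and the log2 fold change was -0.21 ± 0.29 (SE), smaller than its error. Without the first C57BL/6 hybridization it was 0.11.

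Slfn3 could be read only together with Slfn4. The shared probe set 98299_s_at read 194 and -50.1 in AND-TCR–transgenic thymocytes, against 163 and -104 in C57BL/6 thymocytes. Negative values arise when the mismatched oligonucleotides are brighter than the matched ones. All 4 arrays lay below the limit, so Slfn3 was not detectable with these arrays, and no ratio is given.

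**Figure D2:**
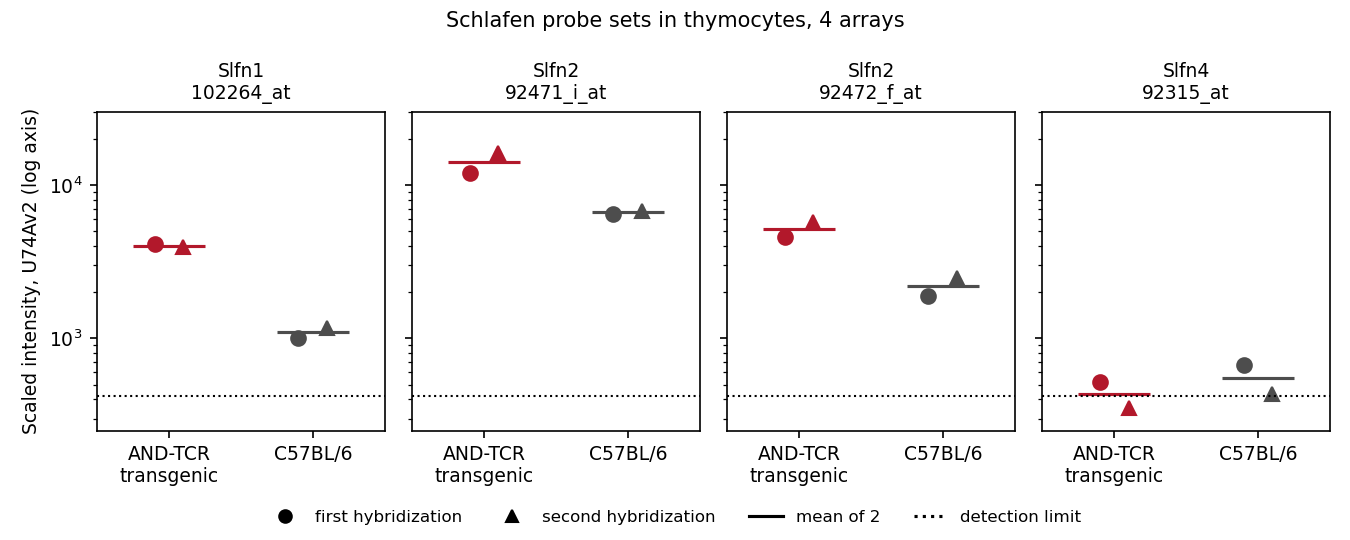
Scaled intensity (vertical log axis) of the 4 member probe sets on the 4 U74Av2 arrays, with AND-TCR–transgenic thymocytes on the left of each panel and C57BL/6 thymocytes on the right. Circles and triangles are the first and second hybridizations, bars are means of 2, and the dotted line is the detection limit of 421. Slfn1 and both Slfn2 probe sets separate the groups, and Slfn4 lies around the limit in both.

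The differences between groups were set beside those between hybridizations of a group. For Slfn1, the log2 ratio of the second to the first hybridization was -0.07 in AND-TCR–transgenic and 0.21 in C57BL/6 thymocytes, well below the log2 ratios between the groups, which were 2.02 on the first day and 1.73 on the second. For Slfn2 92471_i_at it was 0.42 in AND-TCR–transgenic and 0.07 in C57BL/6 thymocytes, and for 92472_f_at it was 0.33 in AND-TCR–transgenic and 0.40 in C57BL/6 thymocytes, each below the log2 ratios between the groups of 0.89 to 1.28. For Slfn4 it was -0.30 in AND-TCR–transgenic and -0.63 in C57BL/6 thymocytes, and neither log2 ratio between the groups was as large in size as the C57BL/6 value. Over all tested U74Av2 probe sets, the median size of this difference was 0.289 in AND-TCR–transgenic and 0.258 in C57BL/6 thymocytes.

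A linear model (limma) with Benjamini-Hochberg adjustment over the 3 array types called 62 of 12844 tested probe sets higher in AND-TCR–transgenic thymocytes at an adjusted p under 0.05 (0.483%) and 73 lower. At an unadjusted p under 0.05 there were 1796 (14.0%), the share to set beside such counts for the lists. The test took probe sets with signal above the limit on both arrays of a group, and all 4 member probe sets met this. Of these, 2 were called higher, 102264_at of Slfn1 and 92471_i_at of Slfn2, and 0 were called lower. Since the same contrast chose the members, nothing is read from that count. With the hybridization number, which marked the day, as a block, 155 probe sets were called higher and 151 lower, among them 92472_f_at of Slfn2 in addition. When any single hybridization was left out, no probe set of the series was called. In 3 of the 4 member probe sets both AND-TCR–transgenic arrays exceeded both C57BL/6 arrays, as in 23% of all tested probe sets. In total, 153 tested probe sets had AND-TCR–transgenic intensities at least 2-fold those of C57BL/6 in both pairs of hybridizations, a threshold that Slfn1 and 92472_f_at of Slfn2 lay inside and that 92471_i_at of Slfn2 missed through its ratio of 1.86.

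**Figure D3:**
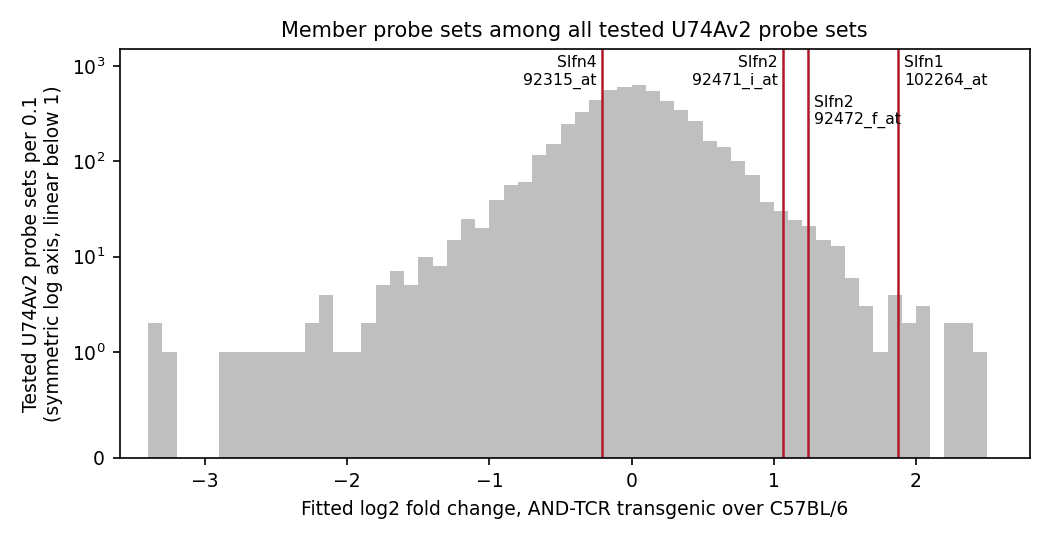
Number of tested U74Av2 probe sets (vertical axis, symmetric log, linear below 1) by fitted log2 fold change (horizontal axis, AND-TCR–transgenic over C57BL/6, bins of 0.1), with red lines at the 4 member probe sets. Slfn1 lies at 1.88, Slfn2 at 1.07 and 1.24, and Slfn4 at -0.21, near the middle of the distribution.

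Other Schlafen genes were measured on the remaining array types, which had been normalized separately. Slfn8, a long member, had the clearest signal among them. On U74Cv2 its probe set 136580_at read 13932 and 15545 in AND-TCR–transgenic thymocytes, against 8061 and 7724 in C57BL/6 thymocytes. The groups did not overlap, and the log2 fold change was 0.90 ± 0.19 (SE), but it was not called after adjustment (limma, adjusted p = 0.103). Slfn9 130071_at read 2337 and 3972 in AND-TCR–transgenic thymocytes, against 531 and 2894 in C57BL/6 thymocytes. The groups overlapped, the first C57BL/6 array lay below the limit, and the log2 fold change was 0.51 ± 0.44 (SE; limma, adjusted p = 0.678). It was 0.07 without the first and 0.95 without the second C57BL/6 hybridization, and 0.89 without the first and 0.13 without the second AND-TCR–transgenic hybridization.

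Slfn5, an interferon-responsive long member, read 1813 and 2329 with 139008_at in AND-TCR–transgenic thymocytes, against 524 and 1162 in C57BL/6 thymocytes. Both C57BL/6 arrays lay below the U74Cv2 limit of 1579, so each ratio is only a lower bound, 1.15 between the first hybridizations and 1.47 between the second, and the gene was not called (limma, adjusted p = 0.436). A second Slfn5 probe set, 115612_at on U74Bv2, was above its limit of 869 on a single C57BL/6 array and was not tested. The Schlafen-like gene Slfnl1 was above the limit on 1 array of each group and was not tested, and Slfn10-ps and Slfn14 had no probe set with their symbol. None of the 3 tested probe sets of the other Schlafen genes passed the threshold. All 3 had positive log2 fold changes, but 139008_at of Slfn5 and 130071_at of Slfn9 entered the test only through the AND-TCR–transgenic arrays. With both C57BL/6 arrays set to the limit, that of Slfn5 could not be negative, so nothing is read from the shared direction.

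**Figure D4:**
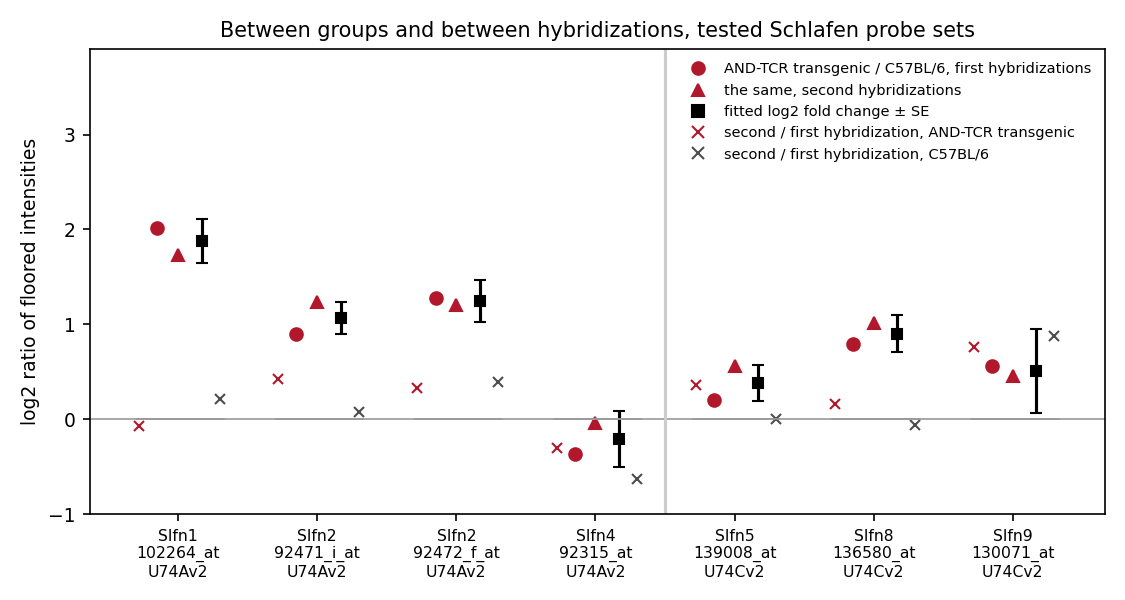
Log2 ratios of intensities, with values below the limit set to it, for the 7 tested Schlafen probe sets. Red circles and triangles are ratios of AND-TCR–transgenic to C57BL/6 intensity in the first and second hybridizations, black squares are fitted log2 fold changes with SE, and crosses are the second over the first hybridization of a group. The Slfn1, Slfn2 and Slfn8 ratios lie above their crosses, whereas those of Slfn9 lie below theirs. For Slfn4, the first ratio lies between its crosses and the second above both.

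The genes whose intensities over the 4 U74Av2 arrays ran closest to each member were found by the Euclidean distance between centered log2 values. Values below the limit entered at the limit. For Slfn1 they were Eif2s3y, Ubxn11 and Ms4a4d, the last at a distance of 0.276. Eif2s3y is a gene of the Y chromosome, and it read 1649 and 1529 in AND-TCR–transgenic thymocytes and lay below the limit on both C57BL/6 arrays, as Ubxn11 did, so the closeness of both rests on where the limit was set and no distance is given for them. The labels do not give the sex of the mice, and a difference in sex between the groups cannot be told apart from the transgene. Ms4a4d, a relative of the Ms4a4b gene of mature T cells, read 3157 and 3238 in AND-TCR–transgenic thymocytes, against 985 and 902 in C57BL/6 thymocytes.

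For Slfn2 92471_i_at, the closest were Dag1, which encodes dystroglycan, the TCR alpha variable segment Trav9d-3 (distance 0.0966) and the inositol phosphatase gene Inpp5a. Dag1 and Inpp5a were below the limit on both C57BL/6 arrays, and their closeness likewise rests on the limit. Trav9d-3 97944_f_at read 56973 and 76088 in AND-TCR–transgenic thymocytes, against 29562 and 29732 in C57BL/6 thymocytes, so it shared with Slfn2 the gap between the transgenic arrays. For Slfn4, whose own second transgenic value stood at the limit, the closest were the ubiquitin ligase gene Cbl, Rab2a and Sar1b, and Rab2a and Sar1b encode GTPases of membrane traffic. Sar1b was also below the limit on the second AND-TCR–transgenic array, so its closeness rests in part on the limit. With 4 arrays, such closeness is a description of these arrays only.

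A list of 22 genes of T cell quiescence and growth restraint was examined beside the Schlafen genes. Of its 36 tested probe sets, from 20 genes, 1 was called higher and 0 lower (limma; 7 at an unadjusted p under 0.05), and their median log2 fold change was 0.23, against 0.02 over all tested probe sets. That median was 0.10 without the second AND-TCR–transgenic hybridization and 0.13 without the second C57BL/6 hybridization. In this list, 161788_f_at of S1pr1 and 106989_at of Foxo1 entered the test only through the AND-TCR–transgenic arrays. The called gene was Bach2, a repressor that keeps T cells naive. It read 18855 and 16046 in AND-TCR–transgenic thymocytes, against 4940 and 7046 in C57BL/6 thymocytes, with a log2 fold change of 1.56 ± 0.25 (SE; limma, adjusted p = 0.0458). The forkhead genes Foxp1 and Foxo1 gave log2 fold changes of 1.46 with 104415_at and 1.12 with 162780_at and were not called (limma, adjusted p = 0.108 and 0.106), and the other tested probe sets of both genes gave 0.29 to 0.62. The antiproliferative gene Btg2 read lower in AND-TCR–transgenic thymocytes on both arrays, with a log2 fold change of -0.52 (limma, adjusted p = 0.186).

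Because several Schlafen genes respond to interferon, 33 interferon-response genes were examined. Of 24 tested probe sets, from 21 genes, 0 were called (limma; 10 at an unadjusted p under 0.05), and the median log2 fold change was 0.50, against 0.02 over all tested probe sets. The highest was Usp18, a protease that removes the ISG15 modifier, which read 1218 and 1460 in AND-TCR–transgenic thymocytes, against 550 and 515 in C57BL/6 thymocytes (log2 fold change 1.32, limma, adjusted p = 0.12). Ifit1, an antiviral RNA-binding protein gene, was below the limit on both C57BL/6 arrays, so its log2 ratios of 0.75 between the first hybridizations and 1.57 between the second are lower bounds (limma, adjusted p = 0.198). Irf9, a subunit of the interferon-activated transcription factor complex, had a log2 fold change of 1.12 (limma, adjusted p = 0.137). Not every tested probe set of the list was higher. Both of Stat2 gave -0.28, Ifi47 gave -0.25, Bst2 gave -0.21 and 162202_f_at of Irf7 gave -0.06, and the rest were positive. Ifit1, 96764_at of Iigp1, Oasl1, 98465_f_at of Ifi204 and 162202_f_at of Irf7 entered the test only through the AND-TCR–transgenic arrays. Only 164778_r_at of Stat2 entered through the C57BL/6 arrays alone. Ifit1 and Iigp1 could not be negative, so nothing is read from these signs or the sign of the median.

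Markers of thymocyte stages differed between the groups, and in total thymocytes more cells of a type and more RNA per cell cannot be told apart. Of 18 tested probe sets for mature single-positive thymocytes, 6 were called higher and 0 lower, and their median log2 fold change was 0.81. Without the first AND-TCR–transgenic hybridization it was 0.54, and with the floor lowered to 1 noise SD it was 1.28. Among them, Gimap4, a GTPase gene of T cells, read 17572 and 18633 in AND-TCR–transgenic thymocytes, against 3617 and 3934 in C57BL/6 thymocytes (log2 fold change 2.26, limma, adjusted p = 0.00222). Ms4a4b 114822_f_at and Cd53 had log2 fold changes of 1.67 and 1.60 (limma, adjusted p = 0.00901 and 0.0111). A second Ms4a4b probe set, 114823_r_at, gave 1.38 and was not called (limma, adjusted p = 0.0986). Il7r read 1425 and 1426 in AND-TCR–transgenic thymocytes, against 2176 and 1729 in C57BL/6 thymocytes. Its log2 fold change of -0.44 was the only negative one among those tested (limma, adjusted p = 0.537). The Bcl2 probe sets of U74Av2 overlapped between the groups and gave 0.21 to 0.32. Those tested on the other array types, 111679_at, 137976_r_at and 137975_i_at, did not overlap and gave 0.69, 0.71 and 0.43. None of them was called (limma, adjusted p = 0.441, 0.429 and 0.352), and 137975_i_at lay below the limit on both C57BL/6 arrays. The summed intensity of this list on U74Av2 was 83667 and 78248 in AND-TCR–transgenic thymocytes, against 42221 and 41555 in C57BL/6 thymocytes. The chemokine receptor gene Ccr7 gave 2.01 and was not called (limma, adjusted p = 0.051). Gimap4, Gimap3 and Ccr7 had been picked out by the study on these arrays, so the count for this list is not independent evidence of its direction. In addition, 110710_at of Gimap3, 161788_f_at of S1pr1, Ms4a6b and 137975_i_at of Bcl2 entered the test only through the AND-TCR–transgenic arrays. Of these, 110710_at was among those called, and 137975_i_at could not be negative. Nothing is therefore read from the sign of the median.

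Of 18 tested probe sets for double-positive thymocytes, 0 were called higher and 9 lower, with a median log2 fold change of -1.11. Rag1, which starts TCR gene rearrangement, read 6545 and 6313 with 93683_at in AND-TCR–transgenic thymocytes, against 33115 and 28353 in C57BL/6 thymocytes (log2 fold change -2.25, limma, adjusted p = 0.00222). A second Rag1 probe set, 161740_r_at, read 508 and 953 in AND-TCR–transgenic thymocytes, against 1661 and 413 in C57BL/6 thymocytes. Its groups overlapped (log2 fold change -0.26, limma, adjusted p = 0.905). The log2 fold change of Rag2, the partner of Rag1, was -3.24, with 1 of the transgenic arrays below the limit (limma, adjusted p = 0.00901). Ptcra and 98323_at of Ccr9 gave -0.17 and -0.15. The other Ccr9 probe set, 163829_r_at, gave 0.40, the only positive value among those tested. Rag1 and Rag2 had likewise been listed by the study from these arrays, so the count for this list is not independent evidence either. Rag2 entered the test only through the C57BL/6 arrays, and 161740_r_at of Rag1 only through the AND-TCR–transgenic arrays. The summed intensity of this list was 73900 and 82449 in AND-TCR–transgenic thymocytes, against 195948 and 187334 in C57BL/6 thymocytes. The part of these marker differences in the Slfn1 and Slfn2 readings was not tested. Of 8 tested probe sets for T cells as a whole, such as those of Cd3e, 0 were called (limma; 3 at an unadjusted p under 0.05), and their median was 0.11, or 0.05 without the first hybridization of either group. Among these, 168931_i_at of Cd3d entered the test only through the C57BL/6 arrays and could not be positive.

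Since Slfn4 is known from monocytes and macrophages, markers of myeloid cells were examined in full. Of 25 U74Av2 probe sets, 14 and 12 were above the limit in AND-TCR–transgenic thymocytes, against 9 and 11 in C57BL/6 thymocytes. Their summed intensity was 18226 and 15463 in AND-TCR–transgenic thymocytes, against 11640 and 13104 in C57BL/6 thymocytes. Itgam, Adgre1 and Mpo, markers of macrophages or granulocytes, were below the limit on all 4 arrays. The complement genes C1qa and C1qc, the neutrophil granule gene Camp and S100a8 were above it on all 4 U74Av2 arrays. So were Cd14, 100755_at of Elane and 99071_at of Mpeg1. Cd14 and Elane came close to the limit, with lowest readings of 426 and 427, both in C57BL/6 thymocytes. S100a8, a calcium-binding protein gene of neutrophils and monocytes, read 2782 and 1983 in AND-TCR–transgenic thymocytes, against 1254 and 1080 in C57BL/6 thymocytes (log2 fold change 1.01, limma, adjusted p = 0.192). That was the highest value among those tested. S100a9 read 1052 and -22.9 in AND-TCR–transgenic thymocytes, against 266 and 441 in C57BL/6 thymocytes, so its groups overlapped, and it was not tested. Elane and C1qa gave log2 fold changes of -0.25 and -0.04, the only negative ones among those tested. The part of myeloid cells in the Slfn4 reading was not tested. Of 10 tested probe sets, 0 were called (limma; 1 at an unadjusted p under 0.05), with a median log2 fold change of 0.37, which was 0.20 without the first C57BL/6 hybridization. Those of Cd68, Lyz2 and Csf1r entered the test only through the AND-TCR–transgenic arrays, and Cd68 could not be negative. Nothing is therefore read from the sign of this median. The B cell list had 9 tested probe sets with 0 called (limma; 4 at an unadjusted p under 0.05) and a median of -0.38. In this list, Cd79a, Cd79b and 97577_f_at of Ighm entered the test only through the C57BL/6 arrays. Of these, Cd79a and 97577_f_at could not be positive. The median was the value of 97577_f_at itself, so nothing is read from its sign. The natural killer list had 1 tested probe set, of Gzma, with a log2 fold change of 1.67 (limma, adjusted p = 0.0621). The thymic epithelium list had 2 with 0 called (limma; 0 at an unadjusted p under 0.05), and no erythroid probe set was tested.

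**Figure D5:**
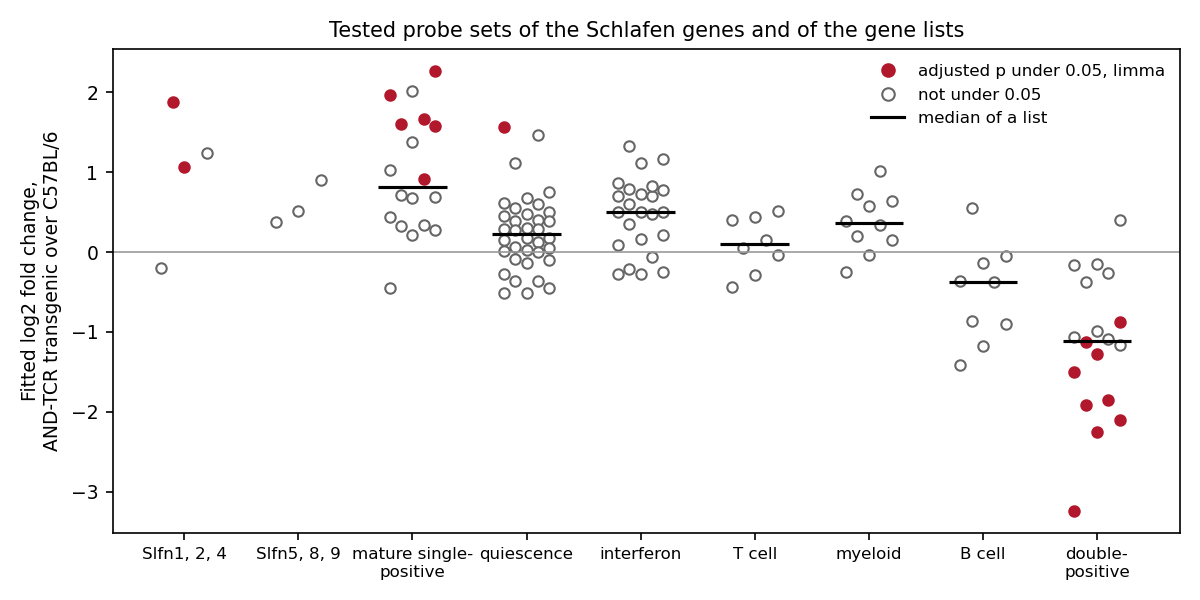
Fitted log2 fold changes (vertical axis, AND-TCR–transgenic over C57BL/6) for the tested probe sets of the Schlafen genes and of 7 gene lists. Filled points had an adjusted p under 0.05 by limma, and bars are medians, which were 0.81 for mature single-positive, 0.23 for quiescence, 0.50 for interferon and -1.11 for double-positive thymocyte genes.

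The 5 protein-coding genes on each side of the Schlafen genes were examined in the same way, a choice made after values had been seen. Of these 10 genes, 6 had tested probe sets, 11 in all, and 0 were called (limma; 1 at an unadjusted p under 0.05). Their log2 fold changes ran between -0.15 and 1.06, with a median of 0.33. The highest was Nle1, a gene of ribosome assembly (limma, adjusted p = 0.198).

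The run records of the arrays bore on all of these differences. The hybridization number marked the same day in both groups on all 12 arrays, and the ratios between hybridizations of the same number are therefore ratios within a day. All AND-TCR–transgenic arrays were washed on a fluidics module other than that of the C57BL/6 arrays, so module and group cannot be told apart. The U74Av2 chips of the second day came from a different lot, and the first C57BL/6 array of U74Av2 had been scanned again.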

How the data were processed

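Total thymocyte RNA of AND-TCR–transgenic and C57BL/6 mice was labeled by the authors as biotinylated cRNA, hybridized to Affymetrix arrays and read with Microarray Suite Version 4.0. The deposited intensities are linear, scaled to a trimmed mean between 1000.4 and 1000.89, and negative for 20.1% to 37.8% of probe sets. Other deposited records, per the file headers, describe the runs. No column was left unused.

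Each array was scaled to the mean trimmed mean of its type (2% dropped at each end). Values below 2 noise SDs (limit 421 for U74Av2, 869 for U74Bv2, 1579 for U74Cv2; noise from negative values) were set to the limit and log2 transformed. Probe sets above it on both arrays of a group entered a limma model (version 3.58.1, R 4.3.3), 1 per array type, with a variance trend and joint Benjamini-Hochberg adjustment. P-values reflect the spread between hybridizations. An exact test of 2 arrays against 2 cannot reach 0.05. The fit was tested on simulated data. Hybridization numbers marked days, and the correlation of second-minus-first differences between groups was 0.04 on U74Av2, with -0.12 on U74Bv2 and -0.23 on U74Cv2.

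Members and lists were chosen with earlier results of these data known. Named genes were every Schlafen probe set, the 3 closest patterns per member, and called or selected list members. Alternatives were the day as a block, other floors, quantile normalization, no filter, no trend and leaving out each hybridization. Gene names came from the platform annotation, and promoters from RefSeq. Figures used Python 3.11.15 and matplotlib 3.10.9.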

Additional observations from a re-analysis of the deposited data

How the results depend on the processing

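Over the 11 alternatives, the log2 fold change ranged from 1.77 to 1.98 for Slfn1 and from -0.52 to 0.11 for Slfn4. It was positive for Slfn4 only without the first C57BL/6 hybridization. For Slfn2 the ranges were 0.86 to 1.28 with 92471_i_at and 1.04 to 1.44 with 92472_f_at. A block cannot change the estimate, since the groups are of equal size within each block. The filter and the variance trend do not enter the estimate at all. Leaving out a hybridization cannot shift it beyond the spread between hybridizations, and all Slfn1 and Slfn2 values lay above every floor. The ranges are therefore no evidence of robustness. Counts of calls changed with the processing. Higher and lower probe sets numbered 155 and 151 with the day as a replicate block, 130 and 140 with the floor lowered to 1 noise SD, 84 and 84 with quantile normalization, 414 and 402 with no filter, 1 and 9 with no variance trend, and 0 and 0 with the floor at 2 times the limit (limma; 1357 at an unadjusted p under 0.05). Leaving out any hybridization gave 0 and 0 (1290 to 1968 at an unadjusted p under 0.05). A block that crossed the hybridization numbers, added after seeing the data, gave 229 and 226 and was the only alternative that called Slfn8. The member probe sets called higher numbered 3 with the replicate block, the lower floor or quantile normalization, 1 with no filter, 0 with no trend or the higher floor, and 0 in each fit on 3 hybridizations. With the floor at 2 times the limit or at 1 noise SD, the medians of the interferon, myeloid and B cell lists were 0.20 and 0.55, 0.10 and 0.60, and -0.18 and -0.90, that of the quiescence list was 0.11 with the higher floor, and the log2 fold change of Slfn9 was 0.17 and 1.01. Without the filter, probe sets resting on the floor have no spread. The cause of the other shifts was not tested. Slfn4 and Slfn3 are limited by signal near or below the detection limit, and 2 arrays per group limit every error given.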
